A study of Mus musculus with 6 samples.

Results

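H2-Mv genes encode nonclassical (class Ib) heavy chains of the major histocompatibility complex (MHC) that mice make in the vomeronasal organ (VNO). The 9 genes H2-M1, H2-M9, H2-M10.1 to H2-M10.6 and H2-M11 were chosen by name from the platform annotation. All 9 were measured, each by 1 probe set, among 22180 genes tested. Whole VNOs were compared between 3 AP-2e null and 3 wild-type samples taken at postnatal day 17, with 1 array per sample. AP-2e is the transcription factor encoded by Tfap2e. No source used here gives the allele, the strain or how many animals made up a sample, and p-values therefore refer to the spread between samples. Values are log2 signals, each difference subtracts the wild-type mean from the AP-2e null mean, and errors of group means are SD with 3 samples in each group.

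The VNO holds apical sensory neurons with V1R receptors and Gnai2 as their G protein subunit, and basal sensory neurons with V2R receptors and Gnao1. Each basal neuron usually combines a V2R with a broadly expressed co-receptor of V2R family C. A subset of basal neurons in the deeper part of that layer also makes 1 or more H2-Mv proteins. H2-Mv heavy chains associate with the class I light chain beta-2-microglobulin and with V2Rs, and mice without the cluster detect V2R ligands less sensitively.

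Pairs of arrays correlated across probe sets, which are not independent replicates, with r between 0.971 and 0.985. Tfap2e averaged 6.03 ± 0.06 in AP-2e null VNOs and 6.71 ± 0.23 in wild-type VNOs, and every null array was below every wild-type array. Its difference of -0.68 (SE 0.13) did not pass over all genes (limma adjusted p = 0.431), and it is unknown here whether its probes lie in the mutated stretch. Trpc2, the transduction channel that marks VNO neurons, was present in all samples, at 7.06, 6.75 and 7.06 on AP-2e null replicates 1, 2 and 3, against 7.06, 6.87 and 7.08 on wild-type replicates 1, 2 and 3. AP-2e null replicate 2 stood apart in cartilage genes, with a mean over 6 markers of 7.89, against 5.31 and 5.51 on the other AP-2e null arrays and 5.48 to 5.73 on wild-type arrays. Wild-type replicate 3 had the lowest mean correlation with the other arrays, 0.973.

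All 9 H2-Mv genes had lower mean signal in AP-2e null VNOs, and for each of them every null array lay below every wild-type array. This separation was found for 3.64% of all tested genes in the lower direction and for 3.42% in the higher. H2-M1 fell past an adjusted p under 0.05 in limma, a threshold at which 0.216% of genes were called lower and 0.00902% higher. The other 8 did not pass it, and all 9 reached an unadjusted p under 0.05, against 2.49% of genes in the lower direction and 1.9% in the higher. The median difference was -0.81 for the 9 genes and -0.00052 for all genes. In whole-organ RNA, fewer cells of a type and less RNA per cell cannot be told apart.

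**Figure D1:**
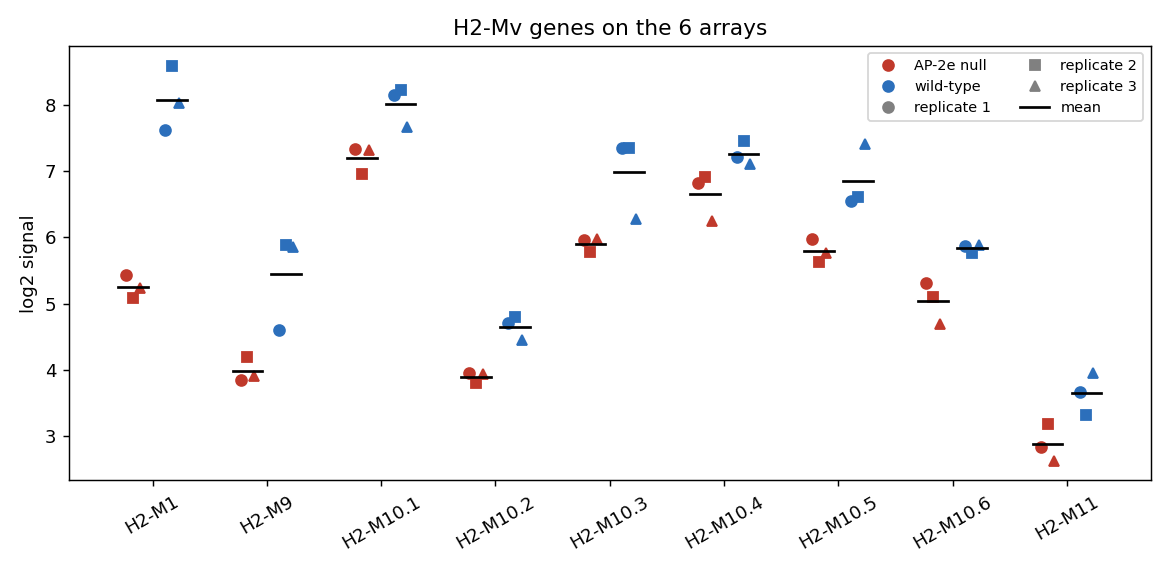
Log2 signal (vertical axis) of the 9 H2-Mv genes (horizontal axis), with AP-2e null arrays in red at the left of each pair and wild-type arrays in blue at the right. Marker shapes give the replicate and black lines the group mean. In each of the 9 pairs the 3 red points lie below the 3 blue points, with the widest gap, 2.18, for H2-M1 and the narrowest, 0.14, for H2-M11.

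H2-M1 showed the largest difference of the 9 genes. On AP-2e null replicates 1, 2 and 3 its signal was 5.43, 5.08 and 5.24, against 7.61, 8.59 and 8.02 on wild-type replicates 1, 2 and 3. The null values were close together and the wild-type values spread over about 1 log2 unit, yet the lowest wild-type array was 2.18 above the highest null array. The means were 5.25 ± 0.17 in AP-2e null and 8.07 ± 0.49 in wild-type VNOs. The difference of -2.82 (SE 0.26, 95% interval -3.46 to -2.19) corresponds to a 7.07-fold lower signal, with a limma adjusted p of 0.0271. Among all genes it ranked 38 from the most negative difference. Leaving out any single array ended the call (adjusted p 0.0625 to 0.259), with differences of -3.05 to -2.57. Without the cartilage-rich AP-2e null replicate 2 the difference was -2.74 (adjusted p = 0.249).

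H2-M9, the gene next to H2-M1 in the cluster, had the second largest difference. Its signal was 3.84, 4.20 and 3.91 on AP-2e null replicates 1, 2 and 3, against 4.61, 5.89 and 5.86 on wild-type replicates 1, 2 and 3. Wild-type replicate 1 lay well below the other wild-type arrays and still 0.40 above the highest null array. The difference was -1.47 (SE 0.37, 95% interval -2.39 to -0.54, limma adjusted p = 0.873), so it did not pass. Without wild-type replicate 1 it was -1.89, with an adjusted p of 0.0600.

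Sequence around the starts of these genes is shown because AP-2e is a DNA-binding factor and the members moved in the same direction. RefSeq windows (build GRCm38.p6, 250 bases before to 50 after the gene start) were found for all 9, and no binding data were used. H2-M1 and H2-M9 windows were 81.5% identical in a global alignment and shared a run of 60 bases. Among the 110 bases before the start, both hold a CCAAT box in each orientation, while H2-M11 holds a single one. H2-M10.5 holds a CRE-type core upstream of its CCAAT box, and H2-M10.6 does not. Capitals mark CCAAT and TGACGT on either strand, which read ATTGG and ACGTCA where the motif is on the opposite strand. The stretches lie at chr17:36672198-36672307 (minus strand, H2-M1), chr17:36642664-36642773 (minus strand, H2-M9), chr17:36772800-36772909 (plus strand, H2-M10.5), chr17:36812065-36812174 (plus strand, H2-M10.6) and chr17:36546965-36547074 (plus strand, H2-M11).
H2-M1: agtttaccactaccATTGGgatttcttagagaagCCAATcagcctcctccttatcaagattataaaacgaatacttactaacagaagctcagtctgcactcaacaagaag
H2-M9: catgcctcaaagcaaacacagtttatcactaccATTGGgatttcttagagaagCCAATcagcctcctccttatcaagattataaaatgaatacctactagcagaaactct
H2-M10.5: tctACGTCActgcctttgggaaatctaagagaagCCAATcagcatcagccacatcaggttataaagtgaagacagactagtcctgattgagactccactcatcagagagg
H2-M10.6: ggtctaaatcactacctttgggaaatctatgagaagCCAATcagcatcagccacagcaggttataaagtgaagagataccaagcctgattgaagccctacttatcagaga
H2-M11: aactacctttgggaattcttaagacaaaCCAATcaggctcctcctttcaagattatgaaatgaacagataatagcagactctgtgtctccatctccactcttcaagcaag

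CCAAT, searched on both strands, was present in 9 of 9 H2-Mv windows and in 37.4% of 32851 RefSeq windows of the same length. The longer AGCCAATC, which contains CCAAT, was present in 8 of 9 H2-Mv windows, all but H2-M11, and in 3.84% of all windows. On the gene's strand its first base lay between 59 and 79 bases before the start. TGACGT, the core of the cyclic AMP response element, matched in H2-M10.1, H2-M10.3, H2-M10.4 and H2-M10.5, which is 4 of 9, and in 7.51% of all windows. The AP-2 type palindrome GCCNNNGGC matched in 0 of 9 H2-Mv windows and in 16.6% of all windows. The same palindrome with 1 more base in its spacer matched in H2-M10.2 alone among the 9, where it overlaps the CCAAT box, and in 14.8% of all windows. These are matches of letters in short windows, and H2-Mv genes share ancestry, so the 9 windows are not independent. CCAATC, which AGCCAATC contains, is a stretch common to all 9 windows and was present in 16.1% of all windows. CCTCCT and TTGGGA, of the same length, were also common to all 9, and each was present in a larger share of all windows. Such stretches were sought as common to the 9 windows, so their presence in all 9 was fixed by the search. The motifs were chosen with earlier results known, so the shares are a description and enrichment was not tested.

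**Figure D2:**
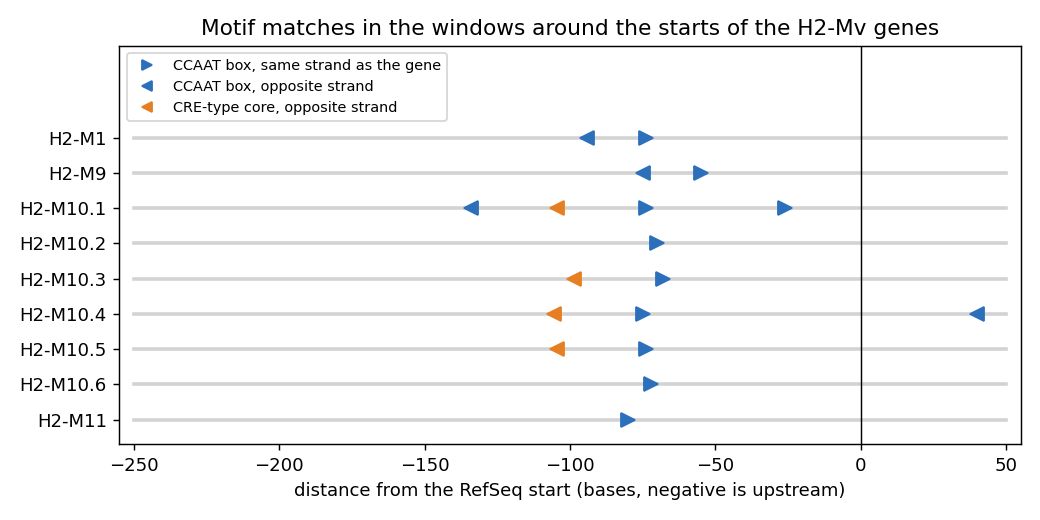
Motif matches in the windows of the 9 H2-Mv genes (rows), by distance from the RefSeq start in bases (horizontal axis, negative upstream). Blue triangles are CCAAT boxes and orange triangles CRE-type cores, pointing right on the gene's strand and left on the opposite strand. A CCAAT box on the gene's strand lies between 57 and 82 bases before the start in all 9 rows, and CRE-type cores stand in 4 H2-M10 rows.

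The 6 H2-M10 genes, whose products include the member with a solved protein structure, H2-M10.5, differed by -1.08 to -0.59, with a median of -0.80. Their windows were 72.3% to 90.3% identical to each other and 56.6% to 61.6% identical to that of H2-M1. None of the 6 passed over all genes. Each is therefore described by its values.

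H2-M10.3 was at 5.95, 5.78 and 5.98 on AP-2e null replicates 1, 2 and 3, against 7.34, 7.35 and 6.27 on wild-type replicates 1, 2 and 3. The null arrays lay close together, whereas wild-type replicate 3 lay nearer to them than to the other wild-type arrays. The difference was -1.08 (SE 0.31, limma adjusted p = 0.873), a 2.12-fold lower signal. Without wild-type replicate 3 it was -1.44 and passed (adjusted p = 0.0282).

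H2-M10.5 was at 5.98, 5.62 and 5.76 on AP-2e null replicates 1, 2 and 3, against 6.55, 6.60 and 7.41 on wild-type replicates 1, 2 and 3. Here wild-type replicate 3 was the highest array, the opposite of its place for H2-M10.3. The difference was -1.07 (SE 0.25, limma adjusted p = 0.854), a 2.09-fold lower signal, and -0.79 without wild-type replicate 3.

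H2-M10.1 was at 7.33, 6.95 and 7.31 on AP-2e null replicates 1, 2 and 3, against 8.14, 8.22 and 7.66 on wild-type replicates 1, 2 and 3. The groups were 0.34 apart at their nearest arrays. The difference was -0.81 (SE 0.18, limma adjusted p = 0.803), a 1.75-fold lower signal.

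H2-M10.6 was at 5.30, 5.11 and 4.70 on AP-2e null replicates 1, 2 and 3, against 5.86, 5.76 and 5.88 on wild-type replicates 1, 2 and 3. Its wild-type arrays were the tightest of the 9 genes (SD 0.07) and its null arrays spread wider (SD 0.31). The difference was -0.80 (SE 0.16, limma adjusted p = 0.591), a 1.74-fold lower signal.

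H2-M10.2 was at 3.95, 3.80 and 3.94 on AP-2e null replicates 1, 2 and 3, against 4.71, 4.80 and 4.46 on wild-type replicates 1, 2 and 3. Both groups were tight, and the nearest arrays were 0.50 apart. The difference was -0.76 (SE 0.11, limma adjusted p = 0.159), a 1.69-fold lower signal and, after H2-M1, the smallest p of the 9 genes.

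H2-M10.4 had the smallest difference. It was at 6.82, 6.90 and 6.25 on AP-2e null replicates 1, 2 and 3, against 7.21, 7.44 and 7.10 on wild-type replicates 1, 2 and 3. The lowest null array carried much of the difference, which was -0.59 (SE 0.20, limma adjusted p = 0.873) with all arrays and -0.39 without AP-2e null replicate 3.

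H2-M11 was at 2.84, 3.18 and 2.63 on AP-2e null replicates 1, 2 and 3, against 3.67, 3.32 and 3.95 on wild-type replicates 1, 2 and 3. Its groups came closest to touching, with 0.14 between the nearest arrays. The difference was -0.76 (SE 0.21, limma adjusted p = 0.873). Its AP-2e null mean of 2.89 lay under the lower quartile of all probe sets, 3.62, where signal is near background and a difference can be understated. The wild-type mean of 3.65 lay just above that quartile, with wild-type replicate 2 below it, so both groups were near background.

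**Figure D3:**
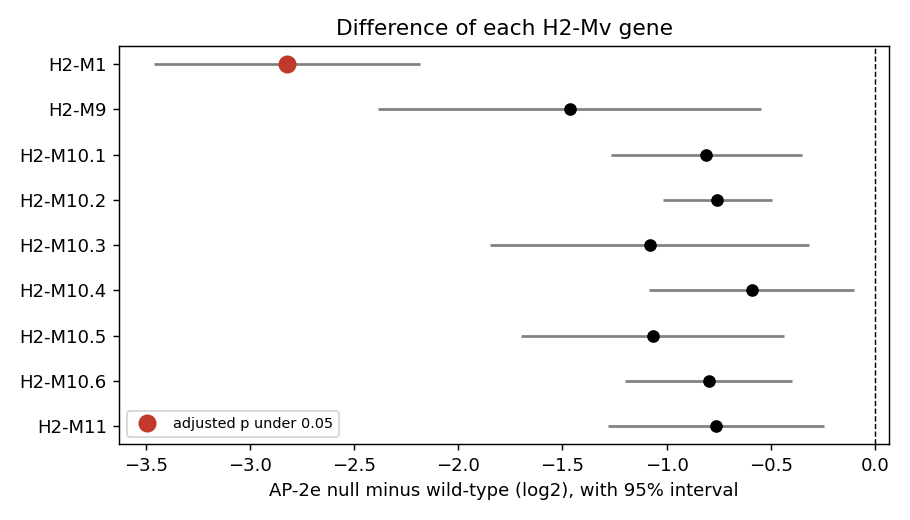
Difference in log2 signal, AP-2e null minus wild-type (horizontal axis), for the 9 H2-Mv genes (rows), with 95% intervals from the limma fit. H2-M1, in red, passed the adjusted threshold at -2.82, and the other 8 points lie between -1.47 and -0.59.

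H2-M1 was set against its relatives within arrays because its difference was the largest of the 9. The pair values restate the differences above, so their shared sign was fixed by that choice and they are given without a test. The signal of H2-M1 minus that of H2-M10.4 averaged -1.41 on AP-2e null arrays and 0.82 on wild-type arrays. That is a change of -2.23, the largest of the 8 pairs. The smallest was with H2-M9, at 1.27 on null and 2.62 on wild-type arrays, a change of -1.36. In all 8 pairs every null array lay below every wild-type array.

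In the RefSeq gene order on chromosome 17 the cluster runs H2-M10.2, H2-M10.1, H2-M10.3, H2-M10.4, H2-M11, H2-M9, H2-M1, H2-M10.5 and H2-M10.6. The genes annotated between them are 11 pseudogenes and 1 long noncoding RNA, of which 1 pseudogene, Gm4271, was measured. The outer neighbours encode tripartite-motif proteins. Trim39 averaged 6.64 ± 0.01 in AP-2e null and 6.58 ± 0.04 in wild-type VNOs, a difference of 0.06 (SE 0.05). Trim26 averaged 7.45 ± 0.03 in AP-2e null and 7.42 ± 0.02 in wild-type VNOs, a difference of 0.03 (SE 0.05). Gm4271, between H2-M1 and H2-M10.5, averaged 3.79 ± 0.02 in AP-2e null and 4.08 ± 0.23 in wild-type VNOs, a difference of -0.28 (SE 0.12). None of these 3 genes passed (limma adjusted p between 0.873 and 0.909). Every null array lay below every wild-type array for Gm4271 and above for Trim39, against 3.64% and 3.42% of all genes. For Trim26 the groups overlapped.

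Class I genes outside the VNO cluster and the proteins that H2-Mv chains work with were examined next. B2m, the light chain, was at 12.17, 12.03 and 11.90 on AP-2e null replicates 1, 2 and 3, against 12.04, 12.01 and 12.03 on wild-type replicates 1, 2 and 3. Its difference was 0.01 (SE 0.08, 95% interval -0.19 to 0.20), and its sign turned under median centring, repeated quantile normalization and array weights. B2m is made by nearly all cells, so its level is not one of H2-Mv neurons alone. Of 21 other class I heavy chain genes listed, 12 were measured, 0 passed in limma in either direction, and at an unadjusted p under 0.05 the count was also 0. Their median difference was -0.03, and their differences ran from -0.25 to 0.54. The 4 with the smallest p were H2-Q1 at -0.19, H2-T10 at 0.54, H2-T24 at 0.24 and H2-Bl at -0.25. H2-K1, a classical heavy chain, differed by -0.03 (95% interval -0.20 to 0.14). For 0 of these 12 genes did all null arrays lie below all wild-type arrays.

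Genes for loading peptide onto class I proteins had a median difference of -0.05, and 0 of 8 passed in limma, also without adjustment of p. The smallest p values belonged to Calr, an endoplasmic reticulum chaperone, at 0.08, Tapbp, the bridge between class I chains and the peptide transporter, at -0.08, its relative Tapbpl at -0.14, and the disulfide isomerase Pdia3 at -0.10. Calr4, a calreticulin relative of VNO neurons, averaged 7.94 ± 0.06 in AP-2e null and 9.03 ± 0.28 in wild-type VNOs. Its difference of -1.10 (SE 0.15, limma adjusted p = 0.141) did not pass.

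**Figure D4:**
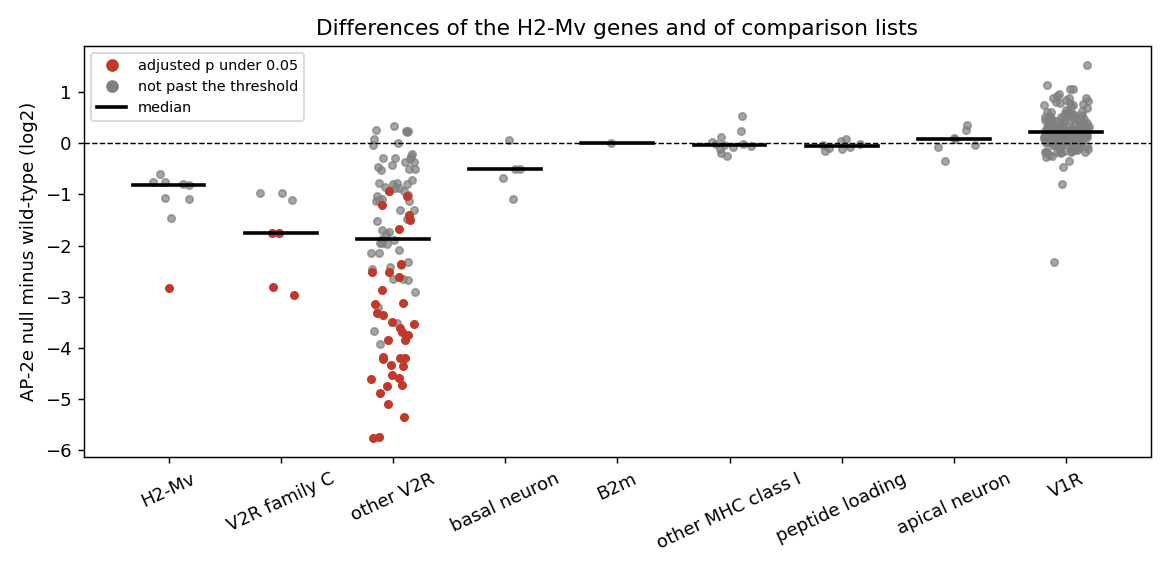
Difference in log2 signal, AP-2e null minus wild-type (vertical axis), for each gene of the H2-Mv group and of comparison lists (horizontal axis). Red points passed an adjusted p under 0.05 in limma and black lines are medians, which are -0.81 for H2-Mv, -1.75 for V2R family C, -1.88 for other V2R genes, -0.03 for other MHC class I genes and 0.22 for V1R genes.

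Most V2R genes, which basal neurons use beside H2-Mv proteins, had lower means too. Of the 7 family C co-receptors 4 fell past the threshold, at which 0.216% of all genes were called lower. The list's median difference was -1.75, against -0.81 for the H2-Mv genes. Vmn2r4 differed by -2.80, beside -2.82 for H2-M1. Vmn2r5 differed by -2.97, but its AP-2e null mean of 1.96 lay under the lower quartile of all probe sets, so this difference can be understated. Vmn2r6 at -1.76 and Vmn2r7 at -1.75 also passed. Vmn2r2 at -1.11, Vmn2r1 at -0.98 and Vmn2r3 at -0.97 did not pass. For all 7 co-receptors every null array lay below every wild-type array, against 3.64% of all genes. All 7 also had an unadjusted p under 0.05 in limma, against 2.49% of genes in the lower direction. Of the family C differences, only that of Vmn2r5 lay outside the span of the H2-Mv genes, -2.82 to -0.59. Only 1 of the 7 passed without AP-2e null replicate 2 or without AP-2e null replicate 3, and 2 passed without wild-type replicate 2. Of the other 102 V2R genes measured 38 fell past the threshold, with a median of -1.88, and 14 to 22 did with any single array left out. Means were lower for 95 of the 102 and higher for 7, with 0 past the threshold in the higher direction. At an unadjusted p under 0.05 in limma 83 were lower and 1 was higher, against 2.49% and 1.9% of all genes. In 83 of the 102 every null array lay below every wild-type array, against 3.64% of all genes. In 2 every null array lay above, against 3.42% of all genes. The differences ran from -5.77 to 0.34. The mean signal of the H2-Mv genes minus that of family C was -0.92, -0.87 and -0.84 on AP-2e null replicates 1, 2 and 3, against -1.77, -1.38 and -1.38 on wild-type replicates 1, 2 and 3. The co-receptor mean was thus lower by more than the H2-Mv mean, and this difference between lists was not tested.

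Basal neuron genes that are not receptors had a median difference of -0.50, against -0.81 for the H2-Mv genes. Of these 5 genes 0 passed, while limma gave 4 a lower mean with an unadjusted p under 0.05, against 2.49% of all genes. Calr4, given above and counted in this list, had its largest difference, -1.10, which went beyond the H2-Mv median. For 4 of the 5, all but Gng8, every null array lay below every wild-type array, against 3.64% of all genes. Gnao1, the basal G protein subunit, averaged 9.86 ± 0.06 in AP-2e null and 10.53 ± 0.21 in wild-type VNOs, a difference of -0.68 (SE 0.11). The adhesion gene Kirrel3 differed by -0.50, the axon guidance receptor Robo2 by -0.49 and the G protein gamma subunit Gng8 by 0.06. H2-Mv mean signal minus Gnao1 was -4.52, -4.70 and -4.82 on AP-2e null replicates 1, 2 and 3, against -4.26, -3.94 and -4.48 on wild-type replicates 1, 2 and 3. All null values lay below all wild-type values, but the nearest were close together. This separation depended on H2-M1, and without it the groups overlapped. The mean of the other H2-Mv genes was 6.07 on wild-type replicate 3, where Gnao1 was at 10.77. On AP-2e null replicate 1 it was 5.25, where Gnao1 was at 9.79.

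V1R receptor genes of apical neurons had higher means for 142 of 176 measured and lower means for 34, with a median difference of 0.22. None passed in limma in either direction. Without adjustment 27 higher and 0 lower genes had a limma p under 0.05, against 1.9% and 2.49% of all genes. Every null array lay above every wild-type array for 32 of them, against 3.42% of all genes, and below for 1. The other apical neuron genes had a median difference of 0.08 with 0 of 7 past the threshold. Their differences were 0.36 for the G protein gamma subunit Gng2, 0.26 for the transcription factor Meis2, 0.11 for Gnai2 and 0.08 for the adhesion gene Ncam2. They were -0.03 for the phosphodiesterase Pde4a, -0.06 for the axon guidance receptor Nrp2 and -0.35 for the adhesion gene Kirrel2. Genes of both neuron classes had a median of -0.10 with 0 of 7 past the threshold. Among them, Omp of mature sensory neurons stood at -0.41, the chloride channels Ano2 and Ano1 at -0.40 and 0.06, and the channel subunit Cnga4 at -0.11. Gnb1, a G protein beta subunit, stood at -0.10, Trpc2 at -0.04 and Reep1, which aids receptor transport, at 0.05. Without adjustment, limma put 1 lower and 2 higher apical genes, and 1 lower gene of both classes, under 0.05. Every null array lay below every wild-type array for 3 of 7 genes of both classes (Omp, Ano2 and Gnb1) and above for 0. The counts were 1 below and 2 above for apical genes, against 3.64% and 3.42% of all genes.

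Markers of other cells were measured beside these genes. Of 11 measured immune markers 9 were higher on average in the null samples, and the list mean was 7.40 ± 0.05 in AP-2e null and 7.13 ± 0.19 in wild-type VNOs. Supporting cell and main olfactory neuron lists overlapped between genotypes, with means of 8.26 to 9.44 and 5.55 to 6.48 on AP-2e null arrays, against 8.16 to 9.39 and 4.88 to 6.78 on wild-type arrays. In these 3 lists and the cartilage list 0 genes passed in limma. Without adjustment 1 gene, Ptprc, was higher with a limma p under 0.05, against 1.9% of all genes. Their part in the H2-Mv differences was not tested. Without AP-2e null replicate 2 and wild-type replicate 3 together, the median H2-Mv difference was -0.81 and 8 of 9 genes had an unadjusted p under 0.05, with 0 past the adjusted threshold.

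Genes whose pattern over the 6 arrays was most like that of the H2-Mv group were sought by the root mean square distance between profiles, each centred on its own mean. This measure contains the genotype difference, so it is a description. Nearest to the mean of the 9 genes were Vmn2r56 (distance 0.0981), Tafa1 (0.103), Vmn2r87 (0.123), Cfap300 (0.123) and Vmn2r92 (0.171). The 9 H2-Mv genes themselves lay farther from their own mean profile, between 0.223 for H2-M10.2 and 0.876 for H2-M1. Vmn2r56, a V2R gene, was at 5.11, 4.95 and 4.86 on AP-2e null replicates 1, 2 and 3, against 5.79, 6.03 and 5.91 on wild-type replicates 1, 2 and 3. Tafa1, which encodes a secreted protein of neurons, differed by -1.17, and Cfap300, a cilium assembly gene, by -1.09.

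For H2-M1 alone the nearest genes were all V2R genes, namely Vmn2r118 (distance 0.275), Vmn2r4 (0.280), Vmn2r5 (0.369), Vmn2r8 (0.385) and Vmn2r86 (0.388). Vmn2r118 was at 4.06, 3.90 and 4.44 on AP-2e null replicates 1, 2 and 3, against 6.33, 6.86 and 6.78 on wild-type replicates 1, 2 and 3. Like H2-M1, its wild-type values were lowest on replicate 1 and highest on replicate 2. The co-receptor Vmn2r4 was at 5.87, 5.07 and 5.04 on AP-2e null replicates 1, 2 and 3, against 8.02, 8.28 and 8.10 on wild-type replicates 1, 2 and 3, with the same order among wild-type arrays. Their differences were -2.52 for Vmn2r118 and -2.80 for Vmn2r4, beside -2.82 for H2-M1. The wild-type order was not shared by all of the nearest genes. Vmn2r5 and Vmn2r8 were highest on wild-type replicate 1, and Vmn2r86 was lowest on wild-type replicate 3. Among AP-2e null arrays, H2-M1 was highest on replicate 1 and Vmn2r118 on replicate 3.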

How the data were processed

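The deposited table holds log2 signals of 41345 probe sets on 6 arrays, made by the authors with RMA, which corrects background, normalizes by quantiles and summarises probes, and with the Transcriptome Analysis Console, per the submitters' processing notes. Versions, settings and genome build: not given in the sources used here. Of the probe sets 23521 had 1 platform gene, 1814 several and 16010 none. The probe set with the highest mean stood for a gene, without a filter on dim genes. Genotypes and replicate numbers came from sample titles. limma 3.58.1 in R 4.3.3 (lmFit, eBayes, 2-sided, no covariate) was fitted to 22180 genes with Benjamini-Hochberg adjustment, threshold 0.05, and tested on simulated data. The number of arrays limits precision. Probes of related H2-M and V2R genes can bind each other's transcripts, so values of single members are uncertain.

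Named were all 9 H2-Mv genes, Tfap2e, B2m, all members of the family C and neuron lists, the 4 smallest p of the class I and peptide loading lists, cluster neighbours and the 5 nearest profiles, without predicted genes among the profiles. H2-K1 and Ptprc were named after their values were seen. The members, lists and motifs were chosen with earlier results of these data known. Alternatives were other variance moderation, averaged or separate probe sets, array weights, cyclic loess, quantile normalization repeated on the table, centring on medians, a filter that drops the dimmest 30% of genes, the replicate number as a block, and each array left out in turn. Leaving out 2 arrays together, counts at unadjusted p and separation under other scalings were added after seeing the data. Windows were aligned with Biopython 1.88 (match 1, mismatch -1, gap opening -3, extension -1), using the first of 2 windows for H2-M9. An exact permutation test of H2-M1 against each other member was planned and run, and is not used because H2-M1 had been chosen for its size. Plots were drawn with matplotlib 3.10.9.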

Additional observations from a re-analysis of the deposited data

How the results depend on the processing

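All 9 H2-Mv genes kept a lower mean in AP-2e null VNOs in every alternative in which they were tested, and 9 of 9 kept separate groups under each scaling. H2-M1 passed in 8 of 16 alternatives (adjusted p 0.00886 to 0.596). With the replicate block, 0 H2-Mv genes passed (H2-M1 adjusted p = 0.288), as with AP-2e null replicate 2 and wild-type replicate 3 both left out. With each array left out in turn, 0 to 1 passed, the 1 being H2-M10.3 without wild-type replicate 3. The block also left 22 genes lower and 0 higher over all genes, against 48 and 2 without it, and 18 other V2R genes, against 38. Deviations of same-numbered samples correlated at 0.040, 0.110 and 0.019, so the numbers were not treated as pairs. The median H2-Mv difference was -1.07 without the dimmest 30% of genes, a filter that removed H2-M10.2 and H2-M11, and -0.93 to -0.78 across left-out arrays. The filter gave other V2R genes a median of -2.12, and median centring gave peptide loading genes -0.0859. Genes higher over all genes numbered 1 with averaged or separate probe sets and with array weights, and 4 with median centring, repeated quantile normalization and cyclic loess. Across left-out arrays, genes lower over all genes numbered 17 to 32 and higher 0 to 1, family C genes 1 to 4, other V2R genes 14 to 22 and basal genes 0 to 1. The 1 basal gene was Calr4, without wild-type replicate 3. Medians over left-out arrays were -1.96 to -1.54 for other V2R genes, -0.0681 to -0.0044 for peptide loading genes and -0.62 to -0.39 for basal genes. B2m turned to -0.0295 with median centring, -0.0316 with repeated quantile normalization and -0.0051 with array weights, and ran from -0.0606 to 0.0717 over left-out arrays. The causes were not tested. The number of arrays, and for H2-M11 signal near background, limit these results.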

Other observations

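The spread between wild-type samples exceeded that between AP-2e null samples for 7 of the 9 H2-Mv genes, with H2-M10.4 and H2-M10.6 the exceptions, against 56.3% of 20545 genes with some spread in both groups. SDs of the 9 genes ran from 0.08 to 0.36 on AP-2e null arrays and from 0.07 to 0.73 on wild-type arrays. Replicate 1 was the lowest wild-type array for 3 genes, replicate 2 for 2 and replicate 3 for 4, while replicate 2 was the highest for 6 and replicate 3 for 3. With 3 samples per group this difference in spread was not tested.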
